A study of Mus musculus with 4 samples.

Results

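A set of 10 genes of intestinal tuft cells and of leukotriene synthesis were followed in colons of wild-type (WT) mice and of mice lacking STAP-2, a signalling adaptor protein: Dclk1, Trpm5, Pou2f3, Gfi1b, Il25, Rgs13, Gnat3, Hmx2, Alox5 and Ltc4s. They are a list chosen by name, with earlier results of these data known, and are 10 genes of the 20827 that could be named and read on all arrays. A probe stood for a gene where the RefSeq accession it targets belongs to that gene. All mice were C57BL/6J, 14 weeks old, and had drunk 1.75% dextran sulfate sodium (DSS), which injures the colonic epithelium, so no untreated colon was part of the comparison. The labels give 7 days of DSS in one field and 3 days in another. The groups were wild type with DSS and STAP-2-/- with DSS, each with 2 samples numbered 1 and 2, and each sample was RNA of whole colons pooled from 3 mice and put on its own array. The labels do not say what the number stands for beyond a biological replicate, so p-values measure the spread between these 4 pools. Below, pool 1 and pool 2 mean the samples of that number. They are separate RNA pools for each genotype, with no shared source given.

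Tuft cells are rare chemosensory cells of the gut epithelium. They sense luminal compounds through taste-type signalling, release the cytokine IL-25, which acts on innate lymphoid cells, and make cysteinyl leukotrienes and prostaglandins from arachidonic acid. In leukotriene synthesis, Alox5 and its helper Alox5ap form leukotriene A, which Ltc4s joins to glutathione. Several of these genes are also active elsewhere: Alox5 and Ltc4s in myeloid and mast cells, Dclk1 in neurons, Gfi1b in megakaryocyte and red cell precursors, and Rgs13 in germinal centre B cells and mast cells. In RNA of a whole tissue, fewer cells of a type and less RNA per cell cannot be told apart.

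The array's 75th percentile of signal was 2134 to 2348 on the 4 arrays, 68.4% to 70.5% of spots lay well above background, and the small number of arrays limits the precision. Stap2, the targeted gene, stood at 2.92 and 2.98 in WT and fell short of the background limit in both STAP-2-/- pools, which puts WT at least 720.9-fold higher. Here and below, a level is log2 of the processed signal minus the array's own 75th percentile, and a difference is between such levels. For the 15150 genes detected everywhere, levels in both WT pools differed with an SD of 0.397, and levels in both STAP-2-/- pools with an SD of 0.610. The SD was 0.316 between both pools numbered 1 and 0.358 between both pools numbered 2, so the arrays resembled each other more by number than by genotype. Probes spotted at least 5 times varied within 1 array by a median SD of 0.049 to 0.052.

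Most of the tuft cell and leukotriene genes were lower in STAP-2-/- colons than in WT colons. Of the 10 genes, 8 were well above background on all 4 arrays. Il25 was above it on 3, and Pou2f3 on none. Of the 9 genes that could be tested, 8 were lower in STAP-2-/- and 1, Il25, was higher. Il25 could be tested only through STAP-2-/-, where both arrays were above background. In 6 of the 9, namely Trpm5, Rgs13, Gnat3, Hmx2, Alox5 and Ltc4s, both STAP-2-/- pools lay below both WT pools. Over all 15555 tested genes 8039 were lower in STAP-2-/-, 13.3% were lower with no overlap and 11.5% were higher with no overlap. None of the 9 was higher with no overlap. The list was chosen with earlier results of these data known, so these shares describe the genes and do not test them. The median difference of the 9 genes was -0.53, against -0.0067 over all tested genes. Leaving out STAP-2-/- 1 moved this median to -0.33, and leaving out STAP-2-/- 2 moved it to -0.78.

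None of these differences passed the test. The limma adjusted p was 1 for each of the 9 genes, and 0 of 15555 genes passed at 0.05 (0% of those tested). Stap2, the targeted gene, also fell short, with a difference of -10.13 and a limma adjusted p of 0.316. With so few arrays, falling short therefore does not show that a gene is unchanged. An unadjusted limma p under 0.05 was reached by 325 genes, 2.09% of those tested, and by 3 of the 9 (Gnat3, Hmx2 and Rgs13). Leaving out 1 array at a time, the genes lower with no overlap numbered 6 (without WT 2 or STAP-2-/- 1) to 8 (without WT 1 or STAP-2-/- 2). With 3 arrays that rule is looser, and 25.9% (without WT 1), 27.0% (without WT 2), 39.7% (without STAP-2-/- 1) and 36.5% (without STAP-2-/- 2) of all tested genes then met it.

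**Figure D1:**
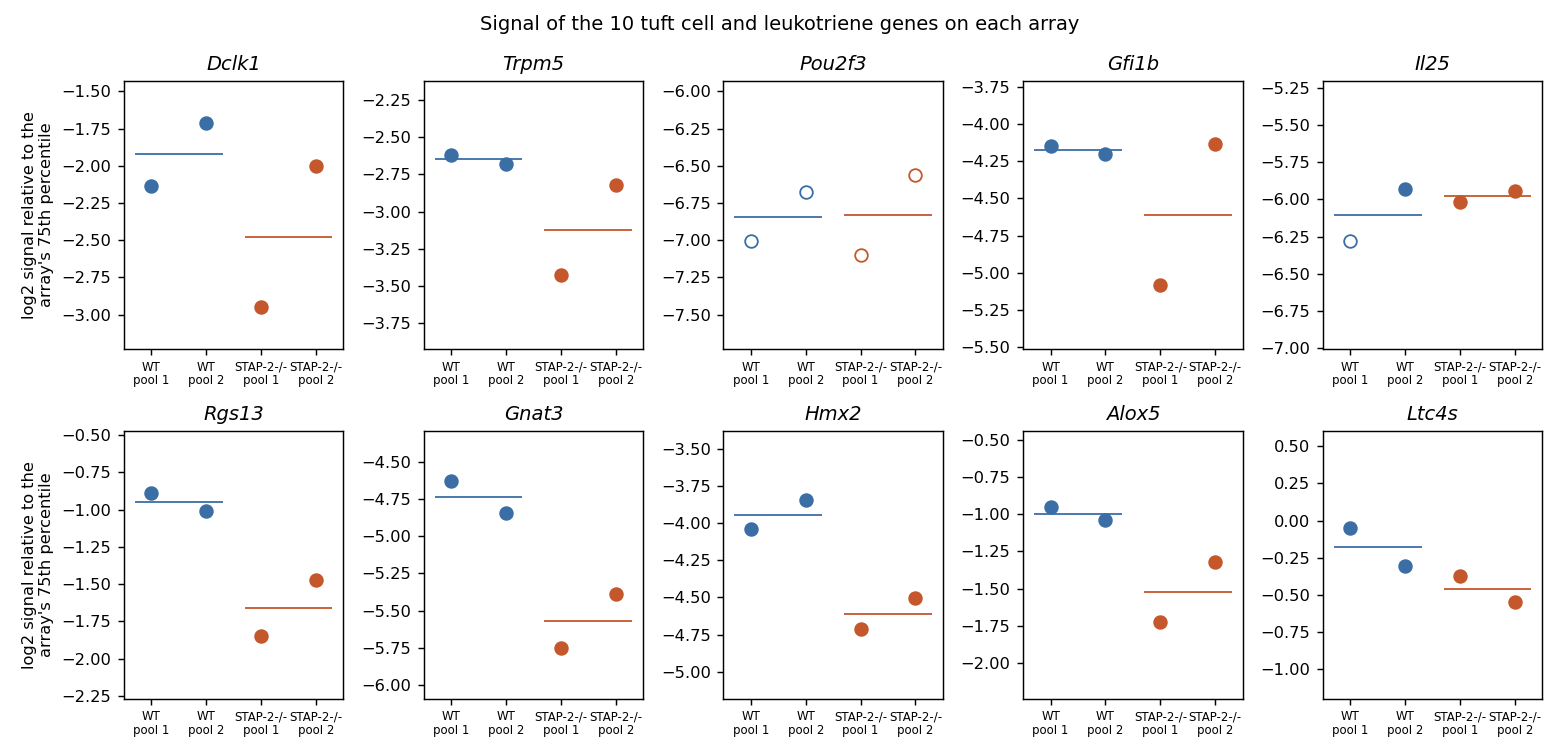
Level of each of the 10 genes on each array (y axis: log2 signal relative to the array's 75th percentile, each panel spanning the same height); blue points are WT, orange points STAP-2-/-, open points are not well above background, and lines mark the mean of each genotype. In 6 panels both orange points lie below both blue points, and in 7 of the 9 tested genes the lowest point is STAP-2-/- pool 1.

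Gnat3, Rgs13 and Hmx2, whose genotype differences had the largest size on the processed signal though not all of them with normexp background correction, and Alox5, the first enzyme of the leukotriene pathway, are shown with the 250 bases before their transcription start. The sequences are RefSeq's on GRCm38.p6, printed 5′ to 3′ on the strand of the gene; the array's own annotation uses the older NCBI37 build, so they are not probe positions. They lie at chr5:17962320-17962569 (plus strand) for Gnat3, chr1:144177373-144177622 (minus strand) for Rgs13, chr7:131548507-131548756 (plus strand, the first of 2 listed starts) for Hmx2, and chr6:116461179-116461428 (minus strand) for Alox5. Capitals mark the TATA box, TATAAA, or the octamer ATGCAAAT that POU-family factors such as Pou2f3 bind, searched on both strands, where present.
Gnat3: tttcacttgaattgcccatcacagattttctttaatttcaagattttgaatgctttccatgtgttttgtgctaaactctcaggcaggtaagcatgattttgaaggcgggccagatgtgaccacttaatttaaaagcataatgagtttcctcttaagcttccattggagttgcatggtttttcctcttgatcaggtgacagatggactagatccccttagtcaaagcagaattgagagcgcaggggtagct
Rgs13: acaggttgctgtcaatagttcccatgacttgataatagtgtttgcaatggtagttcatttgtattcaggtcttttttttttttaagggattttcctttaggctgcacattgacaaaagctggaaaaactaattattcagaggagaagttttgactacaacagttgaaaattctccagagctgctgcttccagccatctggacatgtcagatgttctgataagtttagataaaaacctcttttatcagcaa
Hmx2: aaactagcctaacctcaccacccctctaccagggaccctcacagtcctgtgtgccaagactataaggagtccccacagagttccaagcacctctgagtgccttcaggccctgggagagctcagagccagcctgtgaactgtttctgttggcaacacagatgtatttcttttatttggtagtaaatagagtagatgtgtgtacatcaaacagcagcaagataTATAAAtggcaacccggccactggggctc
Alox5: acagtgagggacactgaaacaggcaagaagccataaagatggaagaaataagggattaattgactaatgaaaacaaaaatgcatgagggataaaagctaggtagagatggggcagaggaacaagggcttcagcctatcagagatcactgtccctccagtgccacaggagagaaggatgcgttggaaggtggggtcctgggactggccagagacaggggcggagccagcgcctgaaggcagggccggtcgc
Windows were listed for 8 of the 10 genes, all but Pou2f3 and Il25. The octamer was in the window of 0 of these 8 genes, against 1.81% of 27025 genes with a window. Of 27 further tuft cell genes with a window, 4 held it (Hpgds, Sucnr1, Itpr3 and Kctd12). The TATA box, which 14.3% of genes held, was present in Hmx2 alone of the 8, starting 29 bases before its first start. Such a match is a description of letters in these windows and not of binding.

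Among the chemosensory signalling genes, Gnat3, Rgs13 and Trpm5 were lower in STAP-2-/- with no overlap. Gnat3 encodes gustducin, the G protein subunit that couples taste receptors to the phospholipase C pathway. Its level was -4.63 and -4.84 in WT pools 1 and 2, and -5.75 and -5.39 in STAP-2-/- pools 1 and 2. All 4 arrays were above background, the WT pools were close to each other, and both STAP-2-/- pools were below them. The means were -4.74 ± 0.15 and -5.57 ± 0.26 (SD, n = 2), a difference of -0.83 (SE 0.20), or 1.78-fold lower in STAP-2-/-. Within pool 1 the difference was -1.12 and within pool 2 it was -0.55. With normexp background correction it shrank to -0.34, smaller than those of Rgs13, Hmx2, Alox5, Dclk1 and Trpm5 under that setting.

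Rgs13 shortens G protein signals by speeding GTP hydrolysis. It stood at -0.89 and -1.01 in WT and at -1.85 and -1.47 in STAP-2-/- colons. The WT pools differed by -0.12 (pool 2 minus pool 1), and STAP-2-/- pool 1 was the lowest array. The mean was -0.95 ± 0.088 in WT and -1.66 ± 0.27 in STAP-2-/- (SD, n = 2), which gives a difference of -0.71 (SE 0.19), 1.64-fold lower. With 1 array left out the difference ran from -0.90 to -0.53.

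Trpm5, the calcium-activated cation channel at the end of the taste cascade, read -2.62 and -2.68 in WT and -3.43 and -2.82 in STAP-2-/-. The groups did not overlap, but STAP-2-/- pool 2 was close to the WT arrays and pool 1 far below them. The mean difference was -0.47 (SE 0.25), 1.39-fold lower. Leaving out STAP-2-/- 1 gave -0.17, and leaving out STAP-2-/- 2 gave -0.78.

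Dclk1, a microtubule-associated kinase and the marker most used for tuft cells in mice, had 3 probes, the only member with more than 1. The brightest probe read -2.13 and -1.71 in WT and -2.95 and -2.005 in STAP-2-/- colons. Here the genotypes overlapped, since STAP-2-/- pool 2 was above WT pool 1. The means were -1.92 ± 0.30 and -2.48 ± 0.67 (SD, n = 2), a difference of -0.55 (SE 0.39), and the difference was -0.08 without STAP-2-/- 1. The probe for another transcript of the gene read -2.20 and -1.96 in WT and -3.14 and -2.56 in STAP-2-/-, with no overlap and a difference of -0.77. On the third, dimmer probe the values were -3.52 and -3.55 against -3.67 and -3.84, again with no overlap, and the difference was -0.22. All 3 probes were thus lower in STAP-2-/-, and they disagreed on whether the genotypes overlap.

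Of the 3 transcription factor genes, Hmx2 and Gfi1b were lower in STAP-2-/- and Pou2f3 was not detected. Hmx2, a homeobox factor, showed the most even pattern: -4.04 and -3.85 in WT, -4.71 and -4.51 in STAP-2-/-. The pools of each genotype lay close together and the genotypes were apart. Its mean difference was -0.67 (SE 0.16), 1.59-fold lower, with -0.67 within pool 1 and -0.66 within pool 2, and it ran from -0.77 to -0.56 with 1 array left out. With normexp background it was -0.38. Gfi1b, a zinc finger repressor, read -4.15 and -4.20 in WT and -5.08 and -4.14 in STAP-2-/-, so 1 array alone, STAP-2-/- pool 1, was low and the other 3 were alike. Its difference of -0.44 (SE 0.36) became 0.04 without that array, and -0.26 with normexp background. Pou2f3, the factor on which the tuft lineage depends, was not well above background on any array, with readings of -7.01 and -6.68 in WT and -7.10 and -6.56 in STAP-2-/-. It was therefore not tested, and no fold is given for it.

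Among the secreted products, Il25 was near the detection limit. It read -6.28 (not well above background) and -5.93 in WT, and -6.02 and -5.94 in STAP-2-/- colons. The genotypes overlapped, and the difference was 0.13 (SE 0.18), or -0.05 without WT 1 and 0.05 with normexp background. As Il25 was tested only through STAP-2-/-, its direction is partly set by the detection rule.

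Both leukotriene enzymes were lower in STAP-2-/- with no overlap. Alox5, the lipoxygenase that starts leukotriene synthesis, read -0.95 and -1.04 in WT and -1.73 and -1.32 in STAP-2-/-. The WT arrays were nearly equal and the STAP-2-/- arrays further apart, with pool 1 the lowest. The means were -0.997 ± 0.063 and -1.52 ± 0.29 (SD, n = 2), a difference of -0.53 (SE 0.19), 1.44-fold lower, and of -0.33 without STAP-2-/- 1. Ltc4s, leukotriene C synthase, read -0.05 and -0.30 in WT and -0.37 and -0.54 in STAP-2-/-. Its WT pool 2 and STAP-2-/- pool 1 were nearly level, and STAP-2-/- pool 2 was the lowest array, where for 7 other tested members STAP-2-/- pool 1 was lowest. The difference was -0.28 (SE 0.17), 1.22-fold lower, and was -0.16 without WT 1.

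The genotype difference was also read within each pool number. In each of the 9 tested genes the absolute difference between STAP-2-/- and WT was larger in pool 1 than in pool 2, as it was for 48.0% of all tested genes, though for Hmx2 the values were nearly equal. Of the 9, 8 were lower in STAP-2-/- within pool 1, and 8 within pool 2; 7 were lower in both, as were 29.1% of all tested genes. The median over the 9 genes was -0.81 within pool 1 and -0.28 within pool 2, while over all tested genes the medians were -0.0025 and -0.0105. STAP-2-/- pool 1 was the lowest array for 7 of the 9 genes and for 30.0% of all tested genes. Within STAP-2-/-, 8 of the 9 were higher in pool 2 than in pool 1 (46.1% of all tested genes were), with Dclk1 and Gfi1b furthest apart at 0.94 and 0.95. The spread between STAP-2-/- pools exceeded that between WT pools in 7 of the 9 genes and in 69.1% of all tested genes. Whether the difference between genotypes itself differs by pool could not be tested, as there is 1 array for each genotype and number.

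**Figure D2:**
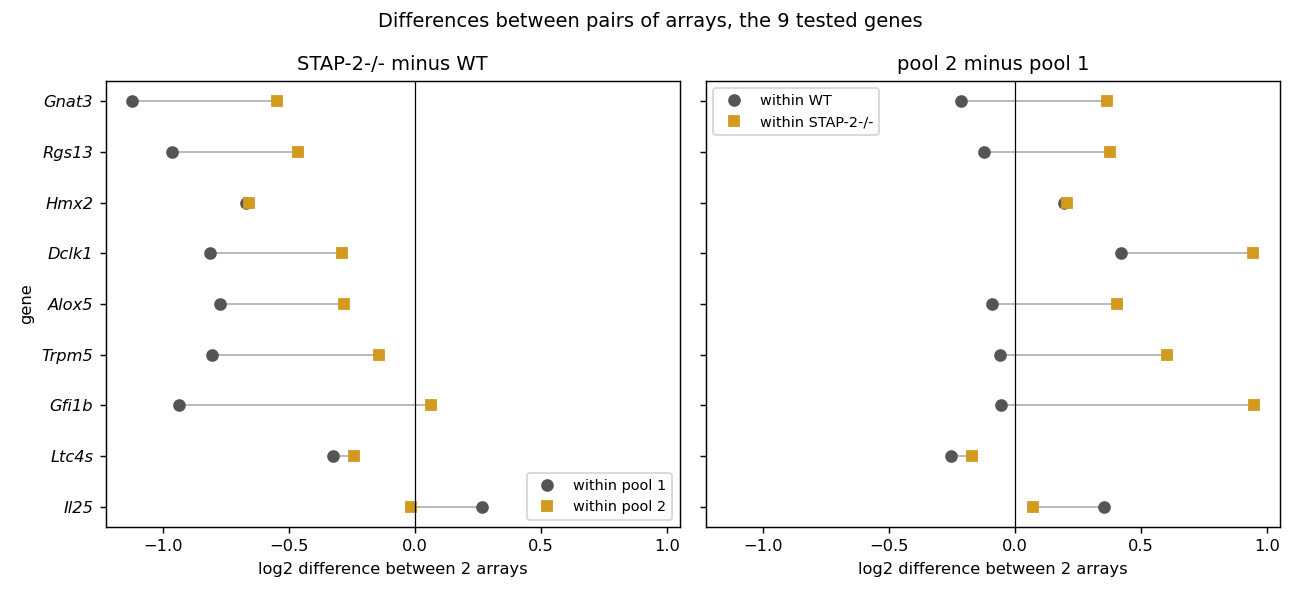
Log2 differences between pairs of arrays for the 9 tested genes: left, STAP-2-/- minus WT within pool 1 (circles) and within pool 2 (squares); right, pool 2 minus pool 1 within WT (circles) and within STAP-2-/- (squares). On the left most circles lie further from 0 than the squares, with Gnat3 at -1.12 and -0.55; on the right Dclk1 and Gfi1b reach 0.94 and 0.95 within STAP-2-/-.

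Pool 2 against pool 1 was compared in the same way, with a WT and a STAP-2-/- sample under each number. Of the 9 genes, 8 were higher in pool 2 and Ltc4s was lower, by -0.21 (SE 0.17). Dclk1 differed by 0.68 (SE 0.31) on its brightest probe, 1.60-fold higher in pool 2, with both pool 2 arrays above both pool 1 arrays; its limma adjusted p was 0.242. The other probes of Dclk1 differed by 0.40 and -0.10, and the mean of the 3 probes by 0.33 (limma adjusted p = 0.465). Its difference was 0.28 without STAP-2-/- 1 and 1.09 without WT 1. Gfi1b differed by 0.45, Trpm5 by 0.27, Il25 by 0.21, Hmx2 by 0.20, Alox5 by 0.16, Rgs13 by 0.13 and Gnat3 by 0.08. No overlap between the pools was found for 2 of the 9, Dclk1 and Il25, both higher in pool 2. Of all tested genes, 26.9% were higher and 36.1% lower in pool 2 with no overlap. Il25 was tested only because both pool 2 arrays were above background. None of the 9 passed with limma after adjustment, and 0 reached an unadjusted p under 0.05, where 4072 of 15644 tested genes (26.0%) did. The 4 genes past the adjusted threshold (0.0256%) were Spp1, Gucy2f, Olfr615 and 1700013G24Rik, which are no members and are named after their values were seen. Each was below the background limit on both arrays of 1 pool, and was tested only through the pool where it was higher. With genes above background on all 4 arrays, 0 passed. Markers of other cells also differed between the pools, and their part in the members' values was not tested. Neutrophil genes were higher in pool 2 in 5 of 6 cases, and in 4 of these the pools did not overlap. Their median was 1.16, and S100a9 and S100a8, which encode their calprotectin subunits, differed by 3.76 and 2.67. Enteroendocrine genes were higher in 8 of 10 (median 0.46), while colonocyte genes were lower in 5 of 8 (median -0.51). For 6 of the 9 the genotype difference was larger than the pool difference, as it was for 30.6% of all tested genes.

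Of 34 further tuft cell genes, 33 had a probe and all 33 were tested: 26 were lower in STAP-2-/- and 7 higher, and 0 passed the limma test. There were 8 lower and 1 higher with no overlap, against 13.3% and 11.5% of all tested genes, and the median difference was -0.18. Hmx3, the neighbour and relative of Hmx2, read -2.20 and -2.11 in WT and -3.05 and -2.61 in STAP-2-/-, a difference of -0.67 (SE 0.20), close to that of Hmx2. Chat, which makes acetylcholine and is shared with enteric neurons, differed by -0.52 (SE 0.13), and the kinase gene Matk by -0.51 (SE 0.15). Avil, the actin-binding advillin of the tuft cell apex, differed by -0.32 (SE 0.14), while the actin bundler Espn was higher by 0.53 (SE 0.19). The others lower with no overlap were the keratin gene Krt23 at -0.55, Spib, a transcription factor also active in lymphoid cells, at -0.43, the tyrosine kinase gene Bmx at -0.36, and Il17rb.

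Other genes of the taste cascade overlapped between the genotypes. Gnb3 and Gng13, the G protein subunits that pair with gustducin, differed by 0.20 (SE 0.56) and 0.03 (SE 0.33), and the phospholipase gene Plcb2 by -0.0040 (SE 0.66). Gnb3 and Plcb2 were lower in pool 2, by -1.04 and -1.25, with no overlap between pools. Both counted as above background on all 4 arrays, but in pool 2 they were dim. Gnb3 read -5.91 in WT and -5.94 in STAP-2-/- there, and Plcb2 -6.39 and -6.67, so signal limits these values. Gnat3 and Trpm5 of the same cascade were lower in STAP-2-/- with no overlap and differed by 0.08 and 0.27 between the pools.

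**Figure D3:**
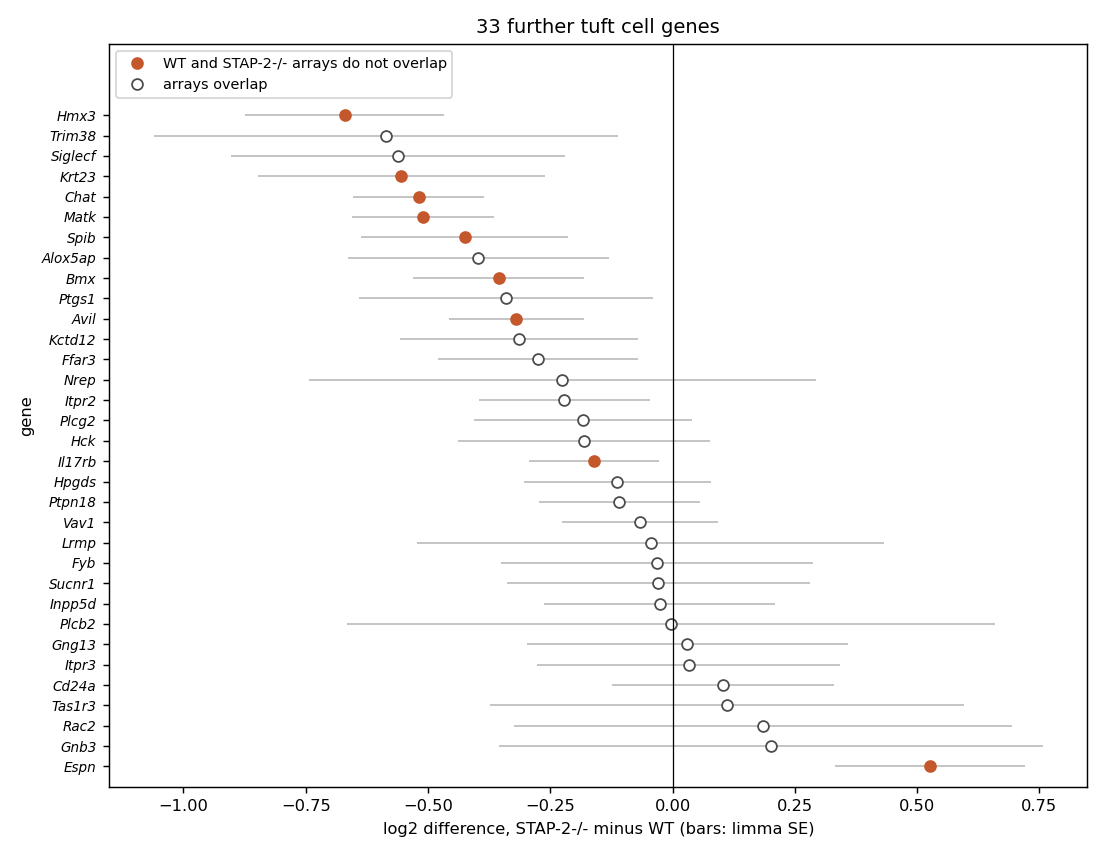
Difference between STAP-2-/- and WT (x axis, log2) of 33 further tuft cell genes, with limma SE bars; filled points have no overlap between the genotypes. Of 33 points, 26 lie below 0, from Hmx3 at -0.67 to Espn at 0.53.

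Of the 18 genes of the wider leukotriene pathway, 15 were tested. Of these, 10 were lower and 5 higher in STAP-2-/-, with a median of -0.09 and 0 past the limma test. With no overlap, 4 were lower and 2 higher, against 13.3% and 11.5% of all tested genes. Alox5ap, the membrane protein that presents arachidonic acid to Alox5, read 0.02 and 0.29 in WT and -0.54 and 0.06 in STAP-2-/-, where the genotypes overlapped; it differed by -0.40 (SE 0.27). Lta4h, which turns leukotriene A into leukotriene B, differed by -0.09 (SE 0.13). Ptgr1, which inactivates leukotriene B, differed by -0.22 and Ggt5, which cleaves leukotriene C, by -0.18. Lta4h, Ptgr1 and Ggt5 were among the 4 lower with no overlap. On the receptor side, Cysltr1 differed by 0.03 (SE 0.25). Cysltr2 read -6.39 and -6.61 in WT, both too dim to count as detected, and -6.18 and -5.93 in STAP-2-/-, which puts it at least 1.27-fold higher there (limma adjusted p = 1). Alox15, a lipoxygenase of another branch, was higher with no overlap, by 0.59 (SE 0.29) and above background on 3 arrays. Cysltr2 and Alox15 were tested only because both STAP-2-/- arrays were above background, the genotype where they were higher, so their direction is partly set by that rule.

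For the type 2 response that IL-25 feeds, 19 of 23 genes were tested, of which 15 were lower and 4 higher, with a median of -0.12. Of all 15555 tested genes, 8039 were lower. In 4 of the 19, Il17rb, Il5, Retnlb and Il13ra1, STAP-2-/- was lower with no overlap, against 13.3% of all tested genes. None was higher with no overlap, against 11.5%. Il17rb, the receptor subunit that binds IL-25, differed by -0.16 (SE 0.13) with no overlap, and its partner Il17ra by 0.27 (SE 0.27). Il13 was well above background on 1 array and was not tested. Il5 was above background on both WT arrays, at -4.48 and -6.56, and on neither STAP-2-/- array, at -7.03 and -8.22. This puts the WT mean at least 2.03-fold higher (limma adjusted p = 1). Il5 was tested only through WT, the genotype where it was higher. The WT arrays were far apart (SD 1.47), so the bound holds for their mean and rests largely on WT pool 1. For such a bound the dim arrays are set to the faintest signal well above background. Retnlb, a goblet cell gene that type 2 cytokines induce, read 3.96 and 4.49 in WT and 0.06 and 3.19 in STAP-2-/-. The genotypes did not overlap, with a difference of -2.61 (SE 1.14), and STAP-2-/- pool 1 was far below the other arrays. Il13ra1 differed by -0.25 with no overlap, and Il33 by -0.31 with overlap.

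Markers of the whole epithelium split evenly between the genotypes, while most goblet cell and colonocyte markers were lower in STAP-2-/-. Of 10 pan-epithelial genes such as Epcam and Krt8, 5 were lower and 5 higher, with a median of 0.014; their summed linear level, in units of the 75th percentile, was 690.8 and 617.0 in WT and 696.5 and 622.0 in STAP-2-/-. Goblet cell markers were lower in 7 of 8 cases (median -0.09, summed 788.2 and 717.4 against 754.3 and 651.7). Colonocyte markers were lower in 6 of 8 (median -0.29, summed 538.9 and 511.6 against 468.0 and 531.1). Their median ran from -0.49 to -0.08 with 1 array left out. Enteroendocrine markers split 5 to 5 (median -0.0029, from -0.28 to 0.14 with 1 array left out, summed 80.3 and 87.2 against 67.8 and 91.5).

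Other cell types that express a member were read beside it, and their part in its difference was not tested. Over all 15555 tested genes 8039 were lower, and 13.3% were lower with no overlap. For Dclk1 and Chat, markers of enteric neurons and glia were lower in STAP-2-/- in 11 of 11 cases and without overlap in 6. Their median was -0.21, with summed levels of 24.1 and 21.5 in WT against 21.7 and 18.8. Snap25 made up 75.2% to 82.2% of that sum, and without it the sum was 4.92 and 5.34 in WT against 3.86 and 4.601. For Alox5 and Ltc4s, 4 of 9 macrophage and monocyte genes were lower (median 0.014, summed 15.3 and 16.3 against 16.3 and 17.4). Mast cell genes, read for Rgs13 as well, were lower in 5 of 7 tested. Their median was -0.35 and ran from -0.47 to -0.02 with 1 array left out. Their summed level was 3.03 and 3.37 in WT against 2.45 and 4.09, of which Kit made up 78.5% to 90.9%. Without Kit it was 0.600 and 0.459 against 0.528 and 0.373, and the receptor gene Fcer1a was not well above background on any array. Eosinophil genes were lower in 3 of 7 (median 0.05, summed 0.740 and 0.833 against 0.732 and 0.756), and the peroxidase gene Epx was not above background anywhere. Neutrophil genes were lower in 5 of 6, with a median of -0.37 that ran from -0.88 to 0.37 with 1 array left out. Their summed level was 58.8 and 53.4 against 57.4 and 44.9, of which Csf3r made up 93.6% to 99.0%. Without Csf3r it was 0.578 and 3.44 against 0.546 and 1.37, with Ngp and Mmp8 not above background on any array.

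For Rgs13, B cell and germinal centre genes were lower in 7 of 8 cases with a median of -0.52. The median was 0.56 within pool 1 and -1.61 within pool 2. Their summed level was 2.19 and 3.91 in WT and 2.60 and 1.93 in STAP-2-/-, of which Bcl6 made up at most 74.5%. Without Bcl6 it was 0.740 and 1.85 against 1.298 and 0.493. Rgs13 itself differed by -0.96 within pool 1 and -0.46 within pool 2. The part of B cells or of mast cells, read above, in its values was not tested. For Gfi1b, red cell and megakaryocyte genes were lower in 2 of 6 (median 0.12, summed 27.1 and 19.0 against 26.7 and 21.3, and 4.90 and 4.40 against 4.68 and 4.25 without the globin gene Hba-a1), and Gata1 and Itga2b were not above background. Stratified epithelium genes, where Pou2f3 is also active, were lower in 2 of 6 (median 0.03, summed 6.71 and 6.25 against 6.25 and 6.69). Trp63 made up 30.6% to 41.2% of that sum, and Krt4, Dsg3 and Ivl were not well above background on any array.

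**Figure D4:**
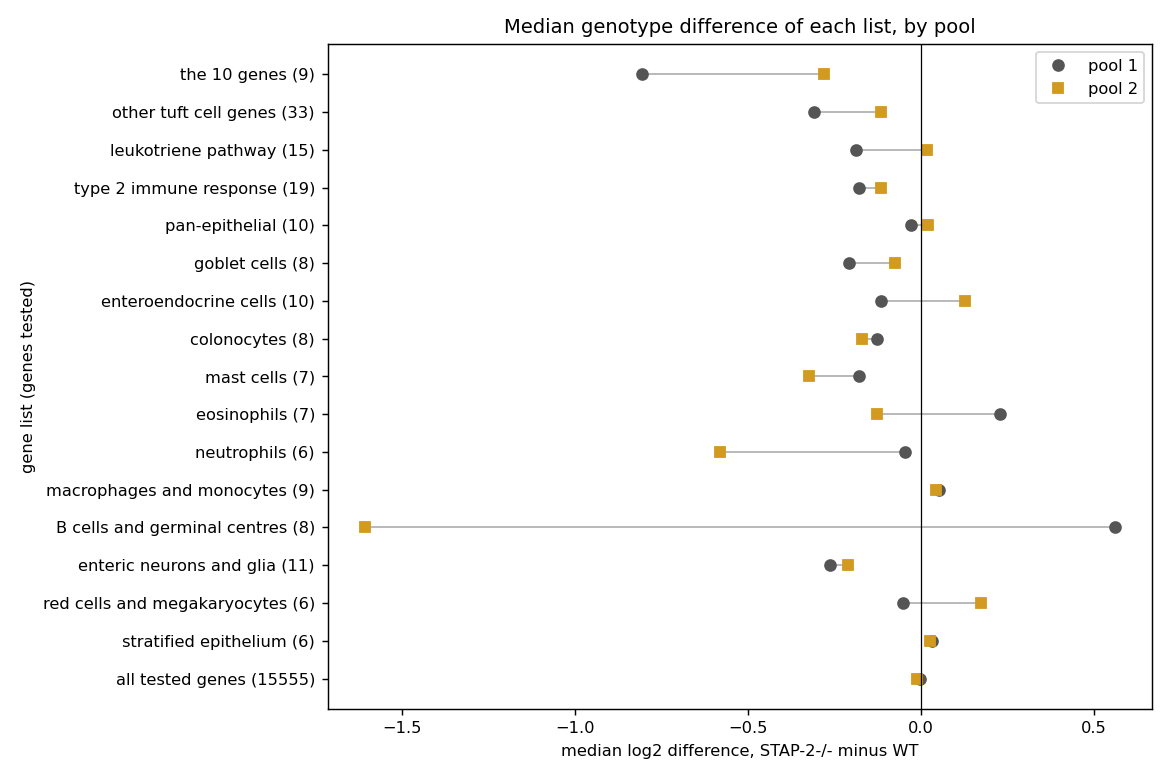
Median log2 difference between STAP-2-/- and WT (x axis) for each gene list, within pool 1 (circles) and pool 2 (squares), with the number of tested genes in brackets. The 9 tested tuft cell and leukotriene genes stand at -0.81 and -0.28, the pan-epithelial genes at -0.028 and 0.020, and the B cell genes at 0.56 and -1.61.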

How the data were processed

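Total RNA of whole colons was labelled with Cy3 and hybridised to 1-colour Agilent mouse arrays, per the labels' protocols, 1 array for each of 4 RNA pools. The deposited scanner files hold a processed signal intensity for each spot, corrected by the scanner software for background and spatial trend, per the file headers, together with median spot intensity and local background. Per the submitters' processing notes the software was Agilent Feature Extraction 10.7.1.1. A ratio fills the value table that the authors deposited: the processed signal over 1 constant per array (within 1% for 100.0% of probes compared), with column medians of 0.090, 0.087, 0.091 and 0.084; it served as an alternative, with values floored at 0.001.

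Levels are log2 of the processed signal minus the 75th percentile of non-control spots; control spots and spots flagged as outliers were left out, and no spot was saturated. Accessions of 27427 of 39429 probes matched a RefSeq table of GRCm38.p6, used for names; for genes with several probes (5488) the one with the highest mean was kept. Testing required a signal well above background in both pools of 1 genotype or, for the pools, both genotypes of 1 pool. Group means were compared with limma 3.58.1 (lmFit, eBayes) in R 4.3.3, without covariates. Benjamini-Hochberg adjustment was over all tested genes, with a threshold of 0.05. The fit was run on simulated independent arrays with changes far larger than the members' differences. That run does not show how the fit performs for differences of their size or for arrays correlated by number. For a bound of a fold, a dim spot took whichever was higher, its measured value or the array's faintest detected signal. Lists are described by counts and medians, without a set test; 186 of 192 list entries had a probe, and Siglecf, Alox5ap and Il17rb stand in 2 lists each. The members and lists were chosen with earlier results of these data known. Besides the members, the text names the 5 tested genes with the smallest unadjusted p of the further tuft cell, leukotriene and type 2 lists, listed partner genes, Stap2 and dim defining markers; Spib, Bmx, Krt23, Epcam, Krt8, S100a8, S100a9, the brightest genes of lists and the genes holding an octamer were named after their values were seen. Alternatives were quantile, median and detected-probe scaling, normexp background with an offset of 50, the value table, other filters, flagged spots kept, the mean of a gene's probes, a trend with robust fit, the replicate number as a block, the genotype as a term, and leaving out each array. Between arrays of equal number, deviations from the mean of the genotype had a correlation of 0.596; the labels give no shared source for a number, so no block entered the main fit. Tables were read in Python 3.11.15 with pandas 2.3.3 and numpy 2.4.6, and plots drawn in matplotlib 3.10.9.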

Additional observations from a re-analysis of the deposited data

How the results depend on the processing

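Across the alternative settings, 132 of 134 genotype values of the 9 tested genes kept their direction and stayed short of the threshold, with limma adjusted p from 0.699 to 1. Those that turned were Gfi1b without STAP-2-/- 1 and Il25 without WT 1: with 1 array left out, Gfi1b ran from -0.91 to 0.0385 and Il25 from -0.0518 to 0.30. No scaling, filter or background setting turned a genotype direction of these 9 genes, but normexp background moved 4 of them by over 1.5 times: Gnat3 to -0.34, Hmx2 to -0.38, Gfi1b to -0.26 and Il25 to 0.05. With the replicate block (both arrays of a number paired), 8 of the 9 were lower in STAP-2-/- and 0 genes passed; Gnat3 differed by -0.83 with an adjusted p of 0.699. With normexp background 1 gene passed the genotype test, Stap2.

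In the comparison of pools, 125 of 134 values kept their direction. With 1 array left out, Trpm5 ran from -0.13 to 0.68, Gfi1b from -0.0218 to 0.91, Rgs13 from -0.36 to 0.61, Gnat3 from -0.49 to 0.64, Hmx2 from -0.14 to 0.54 and Alox5 from -0.23 to 0.54. The genes lower in pool 2 numbered 1 of 9, and 1 to 7 with 1 array left out (7 without STAP-2-/- 1, 4 without WT 2). Genes passing the pool test numbered 4; they were 8 with median scaling, 28 with a trend and robust fit, 0 with normexp background, with no filter, with genes above background on all 4 arrays or with the genotype as a term, and 0 to 3 with 1 array left out. The cause of these changes was not tested. With 1 array left out, the lone array of a group is assumed to vary like the other group. Leaving out each array for the count with no overlap and for list medians, and the sums without a list's brightest gene, were added after seeing the data. Il25, near background, and Pou2f3, below it, are limited by signal.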
